A study of Tetranychus urticae with 12 samples.

Results

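The genes described here are 150 genes of the two-spotted spider mite Tetranychus urticae whose RNA level differed between libraries of the same strain, in each of 3 strains, while the mean levels of the strains stayed close. They were chosen by their measured values. A gene had to reach a mean of 10 CPM (the reads of a gene scaled to the total count of its library) in every strain, its highest strain mean had to be under 2 times its lowest, and it could not be among the 100 most abundant genes. Of 19114 gene IDs, 6834 met these conditions and are called eligible below. They were ranked by the smallest of their 3 within-strain standard deviations (SD) of log2(CPM + 0.5), and the first 150 are the members.

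Whole untreated mites of 3 strains were sequenced: Trizina, a multi-resistant strain from a Greek field population, and the susceptible strains London and BC2018-14. All were kept on kidney bean without insecticides, and the mRNA was sequenced as stranded, paired-end libraries. Counts of all genes were used for 4 Trizina libraries (replicates 4, 5, 6 and 7), 3 London libraries (2, 3 and 4) and 4 BC2018-14 libraries (a, b, c and e), and London replicate 5 was not used here. The labels do not give the sex, the stage or the number of mites in a library, or whether replicates were separate cultures. Total counts ran from 26090006 to 39875401 per library and genes with a count from 15334 to 16171.

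T. urticae is a haplodiploid mite in which males develop from unfertilised eggs, and it passes through a larva and nymphs, separated by quiescent moulting stages, before the adult. A whole-body library pools the RNA of all tissues of the mites that went into it. Fewer cells of a type and less RNA per cell therefore cannot be told apart in such data. The deposited files carry no gene names. None of the IDs (0 of 19114) was found in a RefSeq table of 14930 genes, so the members are given by ID, without a role. For the same reason, defining markers of tissues, sexes or stages could not be looked up.

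Most members moved together. When each gene was centred on its own strain means, 132 of the 150 members (88%) rose and fell with a single pattern over the 11 libraries, the first principal component of the members, which held 71.8% of their scaled variance. These 132 genes, with a correlation of at least 0.5 with the component, are called the larger group. The opposite group, at -0.5 or below, had only 3 members, and 15 members belonged to neither. With members chosen anew, the opposite group held 15 genes without BC2018-14 b, 6 without Trizina 5, 5 without London 4 or BC2018-14 e, and 1 without Trizina 7. The mean pairwise correlation between members was 0.577 over the 11 libraries, against 0.0602 between the 6684 eligible genes that are no members. The lower value does not mean that the other genes lacked the pattern, since they lay on both sides of it: 16.2% had a correlation of at least 0.5 with the component and 40.5% of -0.5 or below. Their own first component held 45.3% of their scaled variance and correlated with that of the members at 0.807 over all libraries, and at 0.993 in Trizina, 0.954 in London and 0.976 in BC2018-14 (absolute values). Centring by strain leaves 8 degrees of freedom over the 11 libraries, and fewer within a strain. Absolute correlations between components of a single strain are therefore easily high. Genes measured in the same libraries share library preparation, depth and scaling, and these correlations are descriptions of 11 libraries.

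**Figure D1:**
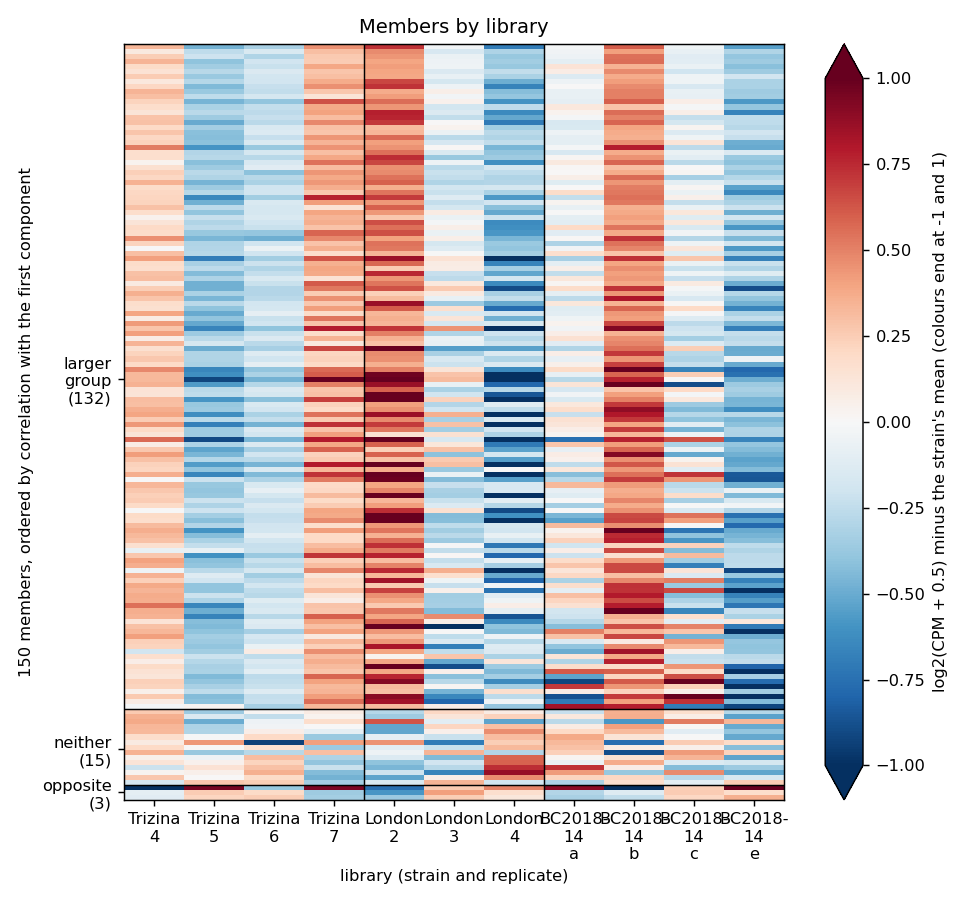
Deviation of each of the 150 members (rows) from its strain's mean, on the log2(CPM + 0.5) scale, in the 11 libraries (columns); red is above and blue below the strain's mean. The 132 rows of the larger group are mostly red in Trizina 4 and 7, London 2 and BC2018-14 b, and mostly blue in Trizina 5 and 6, London 4 and BC2018-14 e.

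The same few libraries stood high or low for nearly all genes of the larger group, which is partly built in, since the group was defined over these libraries. In Trizina, 127 of the 132 genes lay above their strain mean in replicate 4 and 132 in replicate 7, but only 1 did in replicate 5 and 1 in replicate 6. In London, 132 genes lay above it in replicate 2, 40 in replicate 3 and 3 in replicate 4. In BC2018-14, 132 genes lay above it in replicate b and 1 in replicate e, with replicates a (60 genes) and c (45 genes) between. Replicate 7 was the highest Trizina library for 97 of the 132 genes, replicate 2 the highest London library for 129 and replicate b the highest BC2018-14 library for 118. Over all 150 members, which were chosen without regard to direction, these counts were 97, 131 and 123.

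The mean deviation of the larger group put a size on this. It was 0.24 ± 0.13 in Trizina 4, -0.38 ± 0.14 in Trizina 5, -0.23 ± 0.10 in Trizina 6 and 0.37 ± 0.17 in Trizina 7, in log2 units with the SD over the 132 genes. In London it was 0.58 ± 0.29 in replicate 2, -0.13 ± 0.25 in replicate 3 and -0.45 ± 0.34 in replicate 4. In BC2018-14 it was -0.04 ± 0.26 in replicate a, 0.54 ± 0.20 in b, -0.05 ± 0.34 in c and -0.45 ± 0.25 in e. Trizina thus fell into a high and a low pair of libraries, whereas London and BC2018-14 each had a single high library, a single low library and others between.

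**Figure D2:**
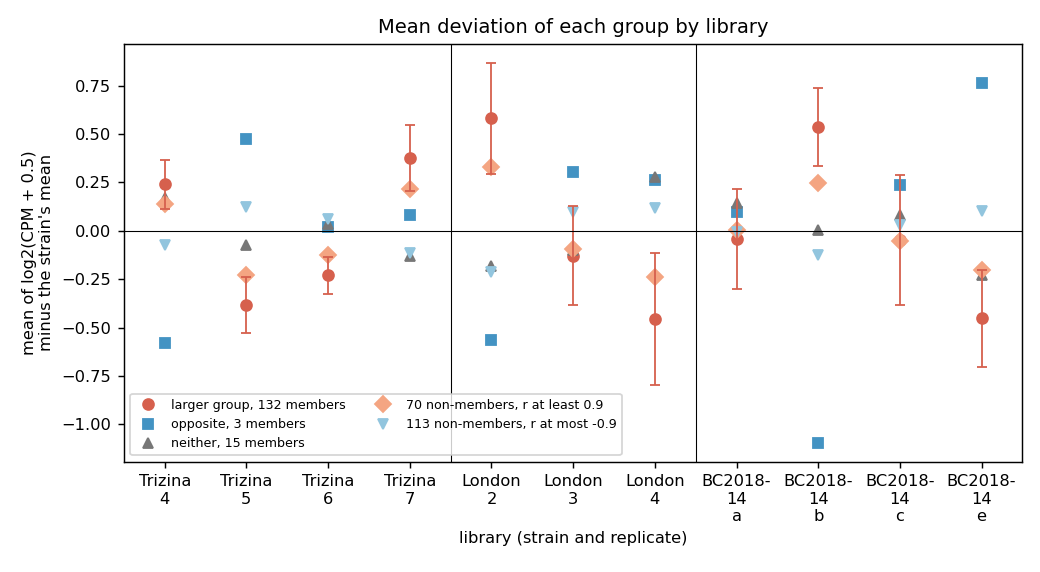
Mean deviation from the strain's mean (log2(CPM + 0.5), vertical axis) in each library (horizontal axis) for the larger group, the opposite group, the members in neither and 2 sets of eligible genes that are no members. Error bars are the SD over the 132 genes of the larger group, which was highest at 0.58 in London 2 and 0.54 in BC2018-14 b.

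Other measures of the libraries are set beside these values, and their part in the pattern was not tested. Total counts did not order the libraries in a single way across strains. In London they ran in reverse of the larger group, with 29262202 in replicate 2, 29563088 in replicate 3 and 39875401 in replicate 4. The high Trizina libraries had 30799433 (replicate 4) and 26454588 (replicate 7) and the low ones 28836713 and 27382141. The high BC2018-14 library had 26535840 and the low one 26851943, the highest total of that strain. TMM factors, another scaling of the libraries, ordered the Trizina libraries as the larger group did. They were 1.014, 1.001, 1.005 and 1.033 in replicates 4 to 7. In London they were 0.890, 0.917 and 0.902 in replicates 2 to 4, lowest in the high library. In BC2018-14 they were 1.068, 1.061, 1.056 and 1.078 in a, b, c and e. Genes with a count numbered 15876 and 15807 in the high and 15700 and 15777 in the low Trizina libraries, and 15554 in BC2018-14 b against 15334 in e. In London the order was the reverse, with 16115 genes in the high and 16171 in the low library. The 100 most abundant genes held 24.7% of counts in London 2 and 22.3% in London 4, 17.0% in BC2018-14 b and 15.5% in e, and between 18.1% and 18.6% in the Trizina libraries. The labels give no batch.

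The members made up a small part of all RNA. Their summed share was highest in London 2, at 1.55% of counts, followed by Trizina 7 at 1.39% and BC2018-14 b at 1.31%. It was lowest in BC2018-14 e at 0.693%, London 4 at 0.805% and Trizina 5 at 0.872%.

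The size of the variation, which chose the members, is given as a description. The median SD of the members was 0.336 in Trizina, 0.473 in London and 0.406 in BC2018-14, against 0.0914, 0.187 and 0.092 for all eligible genes. The highest library of a strain exceeded the lowest by a median of 1.65-fold in Trizina, 1.87-fold in London and 1.91-fold in BC2018-14. Counting error alone would give an SD of at most 0.0916 log2 units for any gene of the larger group in any strain, as a Poisson approximation from its counts. The smallest SD of a member was found in Trizina for 87 genes, in BC2018-14 for 41 and in London for 22. Mean levels over the 11 libraries ran from 10.9 to 797 CPM with a median of 36.2 CPM, and 29 members exceeded 100 CPM.

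The gene of highest rank was tetur20g01790, of the larger group, with a smallest SD of 0.814. Its levels were 31.7, 11.1, 15.3 and 37.2 CPM in Trizina 4 to 7, 82.3, 24.4 and 9.98 CPM in London 2 to 4, and 16.1, 47.4, 43.2 and 17.3 CPM in BC2018-14 a, b, c and e. Trizina 4 and 7 were high and 5 and 6 low, as in the group as a whole, but in BC2018-14 replicate c stood almost as high as b. The strain means were 23.8 ± 12.6 CPM in Trizina (SD, n = 4), 38.9 ± 38.3 CPM in London (SD, n = 3) and 31.0 ± 16.6 CPM in BC2018-14 (SD, n = 4), so that the SD in London was as large as its mean. Within strains the highest library was 3.36-fold, 8.25-fold and 2.94-fold above the lowest.

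The 3 members that followed the component most closely were tetur233g00020 (r = 0.988), tetur09g01750 (r = 0.988) and tetur02g13090 (r = 0.980). For tetur233g00020 the levels were 20.5, 11.5, 12.8 and 22.4 CPM in Trizina 4 to 7, 33.8, 19.9 and 12.4 CPM in London 2 to 4, and 24.3, 37.6, 23.9 and 16.7 CPM in BC2018-14 a, b, c and e. The ranges of the 3 strains overlapped, with strain means of 16.8 ± 5.44 (n = 4), 22.0 ± 10.9 (n = 3) and 25.6 ± 8.71 CPM (n = 4, SD). The gene tetur09g01750 was about as well aligned at higher levels and with smaller swings, from 97.3 to 143.3 CPM in Trizina, 93.9 to 162 CPM in London and 63.4 to 104.3 CPM in BC2018-14. The gene tetur02g13090 was also the member of lowest level, at 10.1 ± 2.15 CPM in Trizina, 10.4 ± 3.21 CPM in London and 12.03 ± 3.66 CPM in BC2018-14 (SD).

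At the other end of the range of levels, tetur23g01290 was the most abundant member. It had 743, 549, 592 and 875 CPM in Trizina 4 to 7, 1624, 1025 and 669 CPM in London 2 to 4, and 614, 858, 714 and 502 CPM in BC2018-14 a, b, c and e. Its order of libraries was that of the larger group in Trizina and London. In BC2018-14 it was also highest in b and lowest in e, and London 2 had the highest level of the 11 libraries.

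The 3 members of the opposite group were low where the larger group was high, though not in every library. The gene tetur12g02770 (r = -0.84) had 139, 175, 179 and 119 CPM in Trizina 4 to 7, 99.1, 151.5 and 138 CPM in London 2 to 4, and 95.9, 101.0, 139 and 154 CPM in BC2018-14 a, b, c and e. The gene tetur03g08310 (r = -0.78) had 145.2, 186, 178 and 122 CPM, 60.9, 122 and 103 CPM, and 128, 144, 187 and 178 CPM in the same libraries. Both were thus lowest in Trizina 7 and London 2, whereas in BC2018-14 replicate a, not b, was lowest.

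The third, tetur20g02130 (r = -0.67), ranked second of all members and varied more widely than the other 2. It had 3.86, 23.9, 9.13 and 23.6 CPM in Trizina 4 to 7, 7.04, 14.7 and 17.4 CPM in London 2 to 4, and 14.99, 0.603, 9.30 and 27.4 CPM in BC2018-14 a, b, c and e. The value in BC2018-14 b rested on 16 reads and was 45.5-fold below that in e. In Trizina the gene was only weakly opposite (r = -0.23 with the component of that strain alone), since replicate 7, where the larger group was highest, also had a high level of it. Its SD was 1.19 in Trizina, 0.664 in London and 2.03 in BC2018-14.

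**Figure D3:**
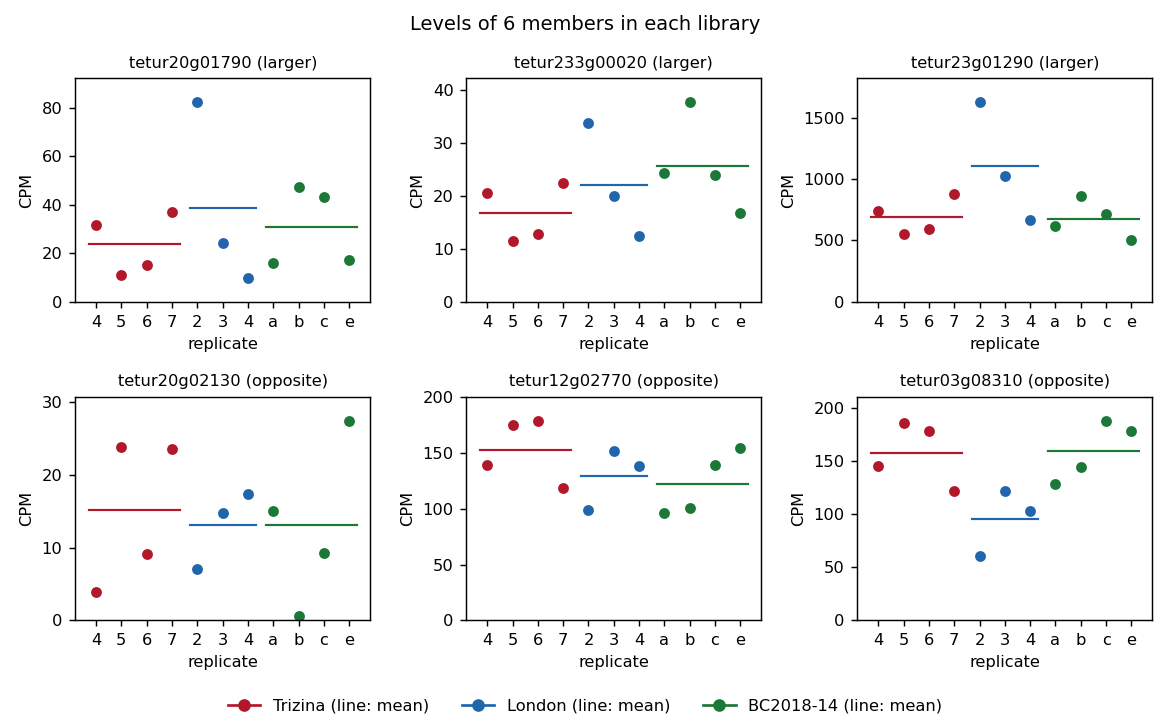
Level in CPM (vertical axis, from 0) of 6 members in each library (horizontal axis, replicate), with a line at each strain's mean. In the 3 upper panels London 2 is the highest London library, at 82.3, 33.8 and 1624 CPM, and in the 3 lower panels it is the lowest, at 7.04, 99.1 and 60.9 CPM.

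The rule used the size of the variation in each strain but not its direction, so the direction could be followed from strain to strain. The members' first component was taken in a single strain, each member was given a sign by it, and the signs were then applied to the libraries of the other strains. Signs from Trizina gave a mean pairwise correlation of 0.703 between signed members in London and 0.592 in BC2018-14. Signs from London gave 0.789 in Trizina and 0.520 in BC2018-14, and signs from BC2018-14 gave 0.723 in Trizina and 0.581 in London. For the eligible genes that are no members, treated in the same way, the values ran from 0.0530 to 0.170. Without signs the members' correlation was 0.685 in Trizina, 0.542 in London and 0.624 in BC2018-14, where signs from either other strain lowered it. Nearly all of the 150 members were positive (139 by Trizina, 135 by London and 142 by BC2018-14). The signed values therefore largely restate how the members co-varied within each strain. No test was made of these values, because genes are not replicates and there is a single set of libraries per strain.

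Between 137 and 146 members kept the same relative sign in any pair of strains, or 91.3% to 97.3%, against 63.1% to 72.5% of the eligible non-members. These 2 shares cannot be compared, because most genes are positive by construction. By Trizina, London and BC2018-14, 139, 135 and 142 of the 150 members were positive, but 3590, 3961 and 4637 of the 6684 non-members. Such uneven signs agree often by themselves. With members chosen anew, the lowest agreement was 94 without London 2 and 109 without BC2018-14 b. All 132 genes of the larger group had the same sign in the 3 strains, as had the 3 of the opposite group, whose membership requires a strong correlation over all libraries. With signs from Trizina, the 139 positive members exceeded the 11 negative ones by 0.89 log2 units in London 2 and fell below them by 0.83 in London 4 (a difference of -0.83). In BC2018-14 the same difference was 0.73 in replicate b and -0.42 in e.

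Single libraries carried part of this. In London without replicate 2, 92 of the 132 genes of the larger group were higher in replicate 3 than in replicate 4, so that 40 were not. Over 2 libraries each pairwise correlation is 1 or -1 and its mean reflects only how evenly the directions split. That mean over all members was 0.0880 without replicate 2, 0.659 without replicate 3 and 0.638 without replicate 4. In BC2018-14 without replicate b the correlation of the members was 0.428, against 0.624 over the 4 libraries. In Trizina it ran from 0.650 to 0.758 when any library was left out, against 0.685 over all 4. When the members were chosen anew, leaving out London 2 kept 74 of the 150 and leaving out BC2018-14 b kept 84, and the correlation of the new members was 0.423 and 0.278.

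Of the 15 members in neither group, 13 followed most other members in at least 1 strain and went against them in another. Against the component of each strain taken alone, 4 of them moved with most members in Trizina and BC2018-14 and against them in London. A further 3 did so in Trizina and London and went against them in BC2018-14, and 6 followed them only in BC2018-14. These patterns count any correlation above 0, also a weak one. Of the 3, tetur11g02070 had 0.98 in Trizina and 0.15 in London, tetur02g05700 0.33 and 0.40, and tetur05g08670 0.87 and 0.996. The last 2 went against them in all 3 strains, but weakly in BC2018-14. The 4 genes named next were chosen after their values had been seen, as an example of each pattern.

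The gene tetur06g01340 had 47.9, 30.9, 40.1 and 35.9 CPM in Trizina 4 to 7, 16.1, 24.1 and 32.3 CPM in London 2 to 4, and 26.2, 28.5, 21.0 and 17.2 CPM in BC2018-14 a, b, c and e. It was lowest in London 2, where the larger group was highest, and highest in BC2018-14 b together with that group. In Trizina it was high in replicate 4 but not in 7. The gene tetur11g02070 was high in Trizina 4 and 7 (67.7 and 65.3 CPM, against 40.7 and 43.7 CPM in 5 and 6) and low in BC2018-14 b (37.0 CPM, against 80.3 to 92.3 CPM in the other 3). In London it had 38.5, 50.6 and 32.4 CPM. The gene tetur25g01780 was highest in BC2018-14 b, at 13.2 CPM against 8.86 to 9.66 CPM in the others, but lowest in Trizina 7, at 11.3 CPM, and in London 2, at 10.7 CPM against 12.5 and 21.8 CPM. The gene tetur05g09280 had 55.0, 74.4, 73.3 and 48.6 CPM in Trizina 4 to 7, so that the libraries of the high pair were its low ones, while its values in London were 46.3, 65.2 and 44.99 CPM and those in BC2018-14 (46.4, 64.7, 53.7 and 68.3 CPM) did not follow the component.

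**Figure D4:**
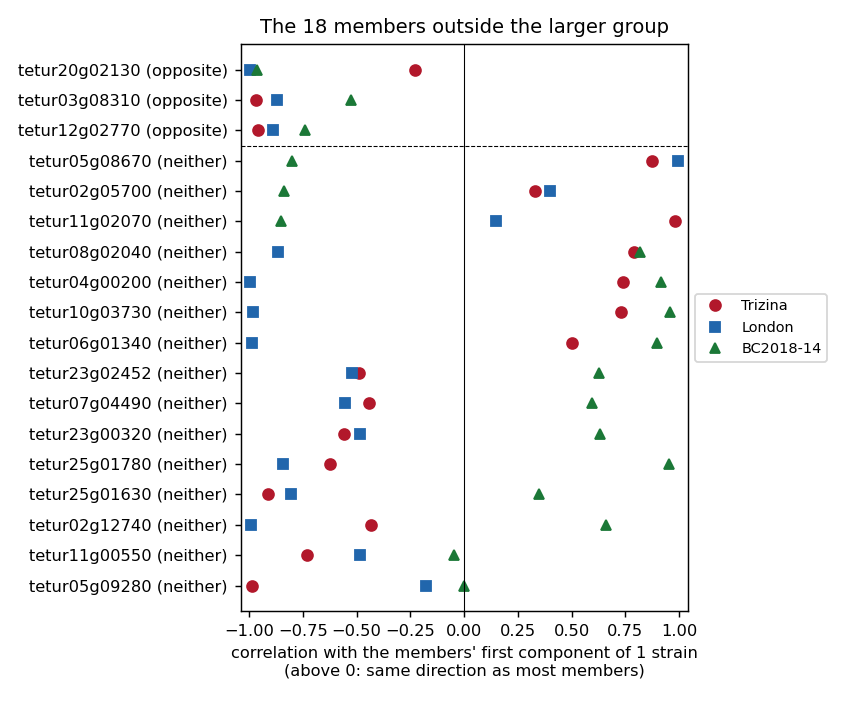
Correlation of each of the 18 members outside the larger group with the members' first component of a single strain (horizontal axis, without unit); values above 0 go in the direction of most members. The 3 opposite genes lie below 0 in all 3 strains, and most of the 15 in neither group lie on different sides in different strains.

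The pattern went beyond the 150 genes. Ranks just inside and just outside the limit were alike: the last 2 members were tetur14g01650 (smallest SD 0.246) and tetur30g01290 (0.245), and the next 2 genes, no members, were tetur07g05180 (0.245) and tetur13g03680 (0.245). Their correlations with the component were 0.947, 0.688, 0.652 and 0.855. Of the 150 genes at the ranks next below the members, 95 (63.3%) had a correlation of at least 0.5 with the component and 9 (6.0%) of -0.5 or below. In the following 300 ranks these shares were 39% and 29.7%, and in the 5634 genes of lowest rank they were 13.2% and 42.0%. Among the eligible genes that vary least, more went against the larger group than with it.

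At a correlation of at least 0.9, 70 eligible non-members followed the larger group, and 113 ran opposite to it at -0.9 or below. The median smallest SD of these opposite genes was 0.0868 and the highest 0.169, and the genes that followed had a median of 0.174. Both medians were above that of all eligible non-members, 0.0652, whose smallest SDs the rule holds below those of the members. The mean deviation of the 113 genes was -0.21 in London 2, -0.13 in BC2018-14 b and -0.11 in Trizina 7, and 0.12 in London 4, 0.10 in BC2018-14 e and 0.12 in Trizina 5. They had a median level of 133 CPM, against 44.9 CPM for the 70 that followed. The gene tetur19g03240, chosen after its values had been seen, had 66.4, 79.0, 75.5 and 60.8 CPM in Trizina 4 to 7, 60.5, 74.4 and 78.8 CPM in London 2 to 4, and 82.9, 69.2, 80.1 and 89.9 CPM in BC2018-14 a, b, c and e, with r = -0.985.

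These counts depended on single libraries. The following genes numbered 141 without BC2018-14 b, 118 without London 3 and 115 without BC2018-14 e, with members chosen anew. The opposite genes numbered 181 without BC2018-14 a, 309 without b, 321 without London 3 and 224 without London 4. With TMM-scaled library sizes, another scaling of the libraries, they were 63 and 148, and the share of non-members at -0.5 or below was 41.2% against 40.5% here.

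Genes left out by the rule for their level or their strain differences held the pattern too. Of 755 genes with at least 10 CPM in every strain and strain means 2-fold or more apart, 51 (6.75%) had a correlation of at least 0.9 and 2 of -0.9 or below. Of 1491 genes that reached 10 CPM in some strains only, 46 (3.09%) and 1 did. Among eligible non-members the share at 0.9 or above was 1.05%, but these lack the 150 members, of which 68 (45.3%) reached 0.9. The 755 and the 1491 genes still hold their most variable genes, so their shares are not comparable with the 1.05%. Of the 100 most abundant genes, 1 reached 0.9 and 7 reached -0.9.

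**Figure D5:**
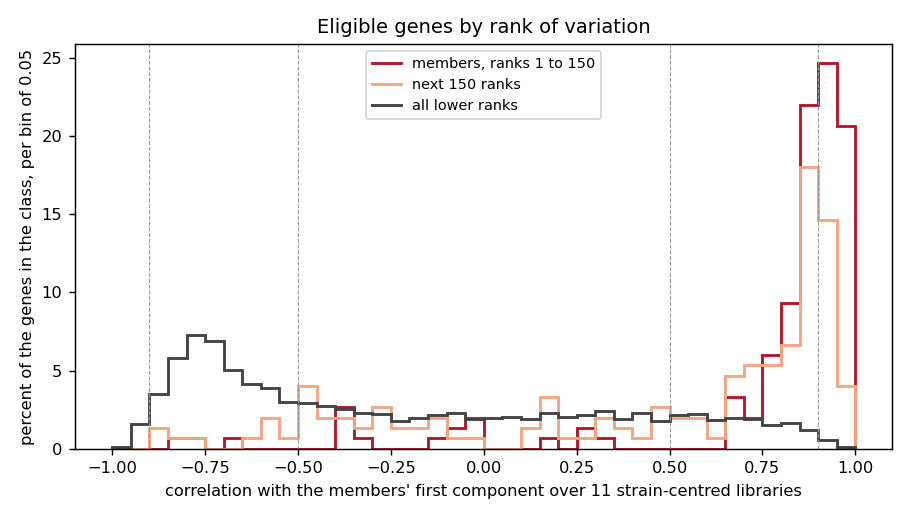
Distribution of the correlation with the members' first component (horizontal axis, without unit) for the members, the next 150 ranks and all lower ranks, as the percent of each class per bin of 0.05 (vertical axis). Members gather above 0.75, the next 150 ranks are spread more widely with most genes above 0.5, and all lower ranks are most frequent below -0.5.

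Position was not used by the rule. The scaffold and the order of genes were read from the IDs, in which the digits before g number the scaffold. The 1762 IDs numbered 90000 or more stand outside the running numbers and were left out when neighbours were counted. They were kept in the counts by scaffold and in the share of all eligible genes, and 2 members have such IDs. The members lay on 40 scaffolds, with at most 10 on any of them (10 of 375 eligible genes on scaffold 05). Scaffold 23, singled out after its values were seen, held 8 members among 90 eligible genes. There were 7 pairs of members next to each other in the list of IDs, or 14 genes. Of the 155 eligible genes next to a member, counted once for each member, 14 (9.03%) were members, against 2.19% of all eligible genes. At 2 to 5 IDs from a member the share was 1.56%, and at 6 to 10 IDs 2.33%. No run of 3 or more members within 5 IDs of each other was found.

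Neighbouring members moved much alike, with a median correlation of 0.932 over the 7 pairs, against 0.761 over all pairs of members. Except in the pair tetur05g08670 and tetur05g08680, both genes belonged to the larger group, whereas all pairs of members include the other groups. Eligible genes next to a member that were themselves no members had a median correlation of -0.24 with it. The likeness thus did not extend to most neighbours. The closest pair was tetur29g00800 and tetur29g00810, at 0.974. The first had 182, 126, 129 and 183 CPM in Trizina 4 to 7, 189.8, 109.2 and 122.9 CPM in London 2 to 4, and 122.0, 179.9, 82.9 and 80.0 CPM in BC2018-14 a, b, c and e. The second had 492, 293, 367 and 453 CPM, 414, 270.1 and 309 CPM, and 308, 477, 215 and 205 CPM. Both were higher in London 4 than in London 3, unlike the larger group as a whole. The pair that differed most was tetur05g08670 and tetur05g08680, at 0.41, of which the first belonged to neither group. The number of pairs fell to 2 without BC2018-14 b, to 3 without Trizina 6 and to 4 without London 2, London 4 or Trizina 5, with members chosen anew. The strand setting of the counting is not given in the sources used here, so reads of overlapping neighbours, like those of near-identical copies, could be counted to either gene.

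Strain differences among the members are given only as a description, because the rule limited the difference of the strain means and also chose genes for a large spread within strains, which is the error of the test. Few calls among the members were thus built into their choice, and nothing is read from the counts. By the quasi-likelihood test of edgeR, with p-values adjusted after Benjamini and Hochberg over 14394 genes, 5 of the 150 members were called between Trizina and London, against 36.5% of all genes tested. Between Trizina and BC2018-14, 20 members were called, all higher in Trizina, against 39.6% of all genes. Between BC2018-14 and London, 24 members were called, of which 21 were lower in BC2018-14, against 47.1% of all genes. The median log2 fold change of the members was -0.13, 0.37 and -0.46 in these comparisons, which share libraries. For all genes tested it was 0.0007, 0.010 and 0.001. The largest absolute change of any member was 1.25 on the log2 scale. The test scaled libraries by TMM factors and the rule by column totals, so the rule's 2-fold limit does not bind these changes. For the top-ranked gene tetur20g01790 the fold changes on the log2 scale were -0.90, -0.31 and -0.59. It was not called in any comparison (adjusted p of 0.35, 0.73 and 0.52 by the same edgeR test). None of the members was in the authors' deposited tables of genes that differ between Trizina and either susceptible strain, and neither was any other eligible gene. The absence of the members therefore came with the choice of eligible genes, whose strain means had to be under 2-fold apart, and nothing is read from it.

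The counts of members called moved by over 1.5 times with single libraries. Between Trizina and London there were 2 without Trizina 4, 1 without Trizina 5 or 6, 10 without London 4 and 3 without BC2018-14 a or c. Of all genes tested in these settings (14313 to 14591), 4423 to 5175 were called. Between Trizina and BC2018-14 there were 10 without Trizina 4, 13 without BC2018-14 a, c or e, and 45 without BC2018-14 b. There, 4589 to 5527 of all genes tested (14313 to 14362) were called. Between BC2018-14 and London there were 13 without BC2018-14 a, 14 without c, 12 without e and 55 without b. Here 5953 to 6575 of all genes tested (14345 to 14362) were called. In each of these settings the share of members called was below that of all genes.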

How the data were processed

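The authors deposited raw read counts per gene. The submitters' processing notes name HISAT2 2.1.0, SAMtools 1.10, featureCounts 1.6.0 and edgeR; genome build, annotation, order and settings are not given in the sources used here. The header of the count table named 12 libraries over 11 values per line. Columns were assigned because their counts equalled those of the named columns in the authors' deposited comparison tables, at 1458 of 1458 and 967 of 967 genes. London library 5 had no such column and was not used.

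CPM was computed on column totals, without other scaling, and log2 values used a pseudocount of 0.5. Correlations are Pearson's, over 11 libraries centred by strain. The chi-square per degree of freedom between libraries of a strain ran from 6.99 to 157, so no library was counted as a repeat of another. Tests between strains take the spread among libraries of a strain as their error, and that spread may be technical. Strains were compared with edgeR 4.0.16 in R 4.3.3 (filterByExpr, TMM factors, robust quasi-likelihood fit of 11 libraries with strain as its only term), and a gene was called at an adjusted p below 0.05. DESeq2 1.42.0 was an alternative. The scripts were tested on simulated data. The members and lists were chosen with earlier results of these data known. Named genes were the 2 of highest rank, the 3 most strongly correlated of each group, the 2 on each side of the limit in rank, the closest pair of neighbours and the members of lowest and highest level. Lists by gene description could not be applied, since no ID had a description.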

Additional observations from a re-analysis of the deposited data

Results flagged for a closer look

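A single library stood apart from the rest of its strain in 1 of 40 groups of 4 libraries examined. Chance alone marks about 1 in 20 of independent groups. Most of these groups come from members chosen for their spread and correlated with each other, so the number found cannot be set against that rate. The gene was tetur14g01650, in BC2018-14, with 224 CPM in replicate b and 148 to 158 CPM in replicates a, c and e. The gap to the nearest library made up 0.841 of the range on the log2 scale, above the 95% critical value of Dixon. The gene is a member because of its spread in these same values, so this is a description and no test.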

How the results depend on the processing

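The larger group held 98 to 137 members under every alternative. Members shared with the 150 fell to 65 when strain means of 1 CPM sufficed, 49 at 50 CPM and 60 with no limit on the ratio of strain means, each of which changes the genes that can be ranked, and to between 74 and 138 with a library left out. In these 3 settings the opposite group had 7, 34 and 1 members, and the median smallest SD was 0.372, 0.212 and 0.387 (0.271 with log2(CPM+5)). The mean pairwise correlation was 0.461 at 1 CPM and 0.153 at 50 CPM, and neighbouring pairs numbered 2 and 3. Leaving out a library gave 1 to 15 opposite members, 2 to 8 neighbouring pairs, a median SD of 0.245 to 0.320, a correlation of 0.278 to 0.640, 67 to 141 following and 90 to 321 opposite non-members (the alternatives for non-members were chosen after seeing the data). Signs shared by 2 strains fell to 94 without London 2 and to 109 without BC2018-14 b, and the cause was not tested.

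Members called numbered 8 (Trizina and London), 33 (Trizina and BC2018-14) and 40 (BC2018-14 and London) with DESeq2. Among all genes, DESeq2 called 5798 of 16461, 6263 of 16115 and 7376 of 16461. Without TMM factors, 8 members were called in the first comparison, against 6179 of 14394 genes. With a library left out, 1 to 10, 10 to 45 and 12 to 55 members were called. All genes called then numbered 4423 to 5247, 4589 to 6882 and 5953 to 7110. No paired analysis was possible because Trizina and the London libraries used share a single replicate number, 4, and BC2018-14 has letters. Depth limits single values of members of low level, such as the 16 reads of tetur20g02130 in BC2018-14 b, where the counting SD for the strain was 0.191 log2 units.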
